A study of Mus musculus with 8 samples.

Results

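Gene expression was compared between 2 mouse cell lines, EHE26 and EHE6. EHE stands for epithelioid hemangioendothelioma, a rare vascular cancer in which the genes for the co-activator TAZ (Wwtr1) and for CAMTA1 are commonly joined. The series holds 8 RNA sequencing libraries of polyadenylated RNA, and the comparison used the 2 libraries named EHE26 (EHE26_1 and EHE26_2) and the 3 named EHE6 (EHE6_1, EHE6_2 and EHE6_3). All genes were compared. Of the 55401 gene identifiers in the count table, 26371 had no read in these 5 libraries, and 18882 passed a filter on low counts over all 8 libraries and were tested. The 3 libraries of the other line, EHE17, entered the model only to estimate the spread between libraries. The labels give each line by its name alone. Genotype, treatment, animal, tissue of origin, number of clones and passage are not given, nor is it said whether libraries of a line came from separate cultures, so a p-value here covers only library-to-library spread, which may be technical.

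The list with the most calls held genes of the interferon response. Interferons are secreted proteins that cells release on sensing foreign or misplaced nucleic acid. They bind receptors coupled to JAK kinases, which activate transcription factors that join IRF9 and bind the interferon-stimulated response element in promoters, switching on a large set of antiviral genes. The same response raises the machinery that displays peptides on MHC class I molecules to T cells. Endothelial cells, the cell type of this tumour, are marked by junction and receptor genes such as Cdh5, Pecam1 and Kdr.

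Total counts were 77491090, 69366708 and 44620965 in EHE6_1, EHE6_2 and EHE6_3 and 55802651 and 47469274 in EHE26_1 and EHE26_2. Levels are given in CPM (read counts as parts of the library total) scaled by TMM factors, always in the order EHE6_1, EHE6_2, EHE6_3 and then EHE26_1, EHE26_2. EHE6_3 stood apart from the other EHE6 libraries. On the first principal component of all 8 libraries, which held 56.2% of the variance, EHE6_1 and EHE6_2 scored -106 and -122, whereas EHE6_3 scored 128 beside 126 and 148 in EHE26. EHE17_3 also lay on that side, at 41.7 against -114 and -103 in EHE17_1 and EHE17_2, and had 20682 genes with a read. Across tested genes, the rank correlation of EHE6_3 was 0.894 with EHE6_1 and 0.888 with EHE6_2 but 0.938 and 0.945 with the EHE26 libraries. The correlation was 0.981 between EHE6_1 and EHE6_2 and 0.977 between the EHE26 libraries. Levels in EHE6_3 differed at least 2-fold from EHE6_1 at 8292 genes (43.9%) and from EHE26_2 at 5354 genes (28.4%). Genes with at least 1 read numbered 24462, 24698 and 20066 in EHE6 and 20618 and 20258 in EHE26. Total counts and detected genes therefore moved with the same split, and their part in the differences was not tested.

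The place of EHE6_3 was described for each gene on the log2 CPM scale, as the distance from the mean of EHE6_1 and EHE6_2 to EHE6_3 over the distance to the mean of EHE26. Under 1/3 it is said to lie with EHE6, over 2/3 with EHE26, and otherwise between. The measure was given where the means of EHE26 and of EHE6_1 and EHE6_2 differed by at least 1 log2 unit. That was so for 7214 tested genes, of which EHE6_3 lay with EHE26 at 4511 (62.5%), with EHE6 at 1654 (22.9%) and between at 1049 (14.5%). Where EHE26 was the lower side, EHE6_3 lay with EHE26 at 69.6% of genes and with EHE6 at 16.5%. Where EHE26 was the higher side, these shares were 50.9% and 33.5%. Counts of places in the gene lists below are to be read against these shares.

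In the test of EHE26 against all 3 EHE6 libraries, 237 genes were called, which is 1.26% of those tested. Genes were called at an adjusted p under 0.05 in edgeR's quasi-likelihood test if they also differed at least 2-fold (1 log2 unit). Of these, 207 were higher in EHE26 (1.1%) and 30 were lower (0.159%), while 3000 genes had an unadjusted p under 0.05, 1294 of them higher (6.85% of tested genes) and 1706 lower (9.04%). DESeq2, used as an alternative, called 672 higher (3.56%) and 913 lower (4.84%), so the split between directions depended on the tool. Fold changes are EHE26 minus EHE6 on the log2 scale. The value after ± is an approximate standard error (SE), the absolute fold change over the square root of the test's F statistic. The median was 4.70 among the higher genes and -4.90 among the lower ones, against -0.11 over all tested genes. All 237 had no overlap between the 3 EHE6 and the 2 EHE26 libraries, as did 31.3% of all tested genes. EHE6_3 lay with EHE6 at 197 of the higher and 28 of the lower genes and between at the other 10 and 2. Since EHE6_3 took part in that test, its place at these genes was in part fixed by the call. Leaving out 1 library gave 65 calls without EHE6_1, 85 without EHE6_2 and 1632 without EHE6_3, 79 without EHE26_1 and 92 without EHE26_2, and 153, 143 and 293 without EHE17_1, EHE17_2 and EHE17_3. A term for the library set, the sign of the first principal component as read from the data, set EHE6_3, EHE17_3 and both EHE26 libraries against the other 4 and gave 356 calls (1.89%), 296 higher (1.57%) and 60 lower (0.318%), 195 of the 237 among them. With EHE6_3 as the sole EHE6 library, 69 genes were called (0.358% of 19265), 54 higher (0.28%) and 15 lower (0.0779%). Of the 237 genes, 53 were called in all 8 fits that left out a library, 49 of them higher and 4 lower.

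The test without EHE6_3 compared EHE26 with EHE6_1 and EHE6_2 and called 1632 genes (8.58% of 19010), 834 higher (4.39%) and 798 lower (4.2%). Because EHE6_3 had no part in this choice, its level there was free to fall on either side. At the higher genes it lay with EHE6 at 325, between at 177 and with EHE26 at 330. At the lower genes it lay with EHE6 at 87, between at 149 and with EHE26 at 562. Of the 892 genes in both directions where it lay with EHE26, it was within 1 log2 unit of the EHE26 mean at 664. It was further from EHE6_1 and EHE6_2 than EHE26 was, by more than 1 log2 unit, at 155, and short of EHE26 by more than that at 73. Genes higher in EHE26 were thus divided evenly by the place of EHE6_3, and genes lower in EHE26 were mostly low in EHE6_3 too.

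**Figure D1:**
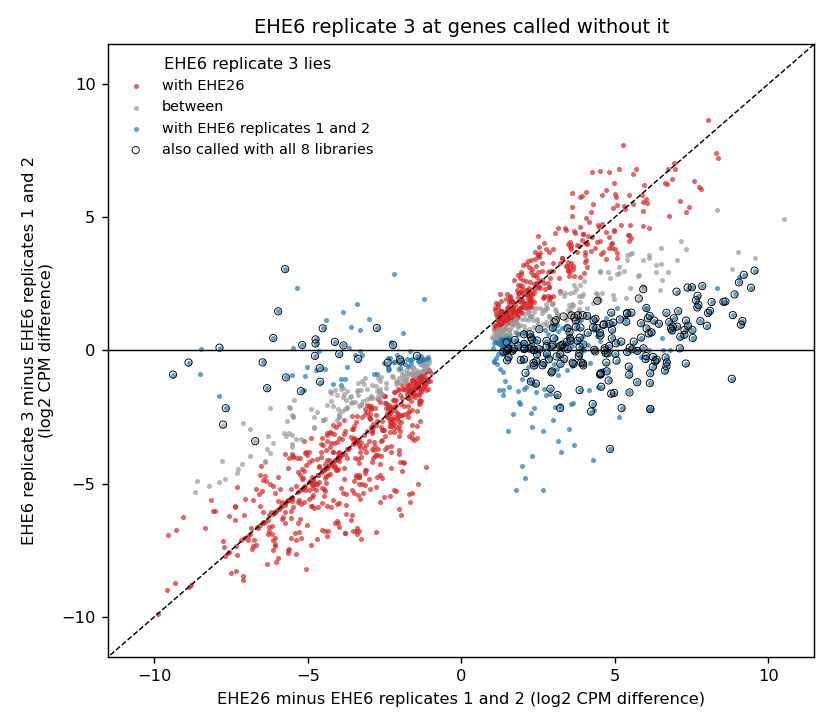
Genes called between EHE26 and EHE6 without EHE6 replicate 3 (1632 genes, 1 point each where a place was given). The x axis is the log2 CPM difference of EHE26 from the mean of EHE6 replicates 1 and 2, the y axis that of EHE6 replicate 3 from the same mean. Points on the horizontal line are at the level of EHE6 replicates 1 and 2, those on the dashed diagonal at the level of EHE26. Of the lower genes, 562 are with EHE26, and the higher genes divide into 330 with EHE26, 177 between and 325 with EHE6. Open circles mark the genes that were also called with all 8 libraries.

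Interferon-stimulated effectors, the antiviral proteins made on interferon signalling, were higher in EHE26. Of 45 listed genes 44 were tested, 34 were called higher and none lower, against 1.1% of all tested genes. All 44 had a positive fold change and the median log2 fold change was 5.24. The median difference from EHE6_1 and EHE6_2 was 6.04 in EHE26 and 1.13 in EHE6_3 on the log2 CPM scale. EHE6_3 lay with EHE6 at 35 of the 43 genes with a place, between at 6 and with EHE26 at 2, Ifit2 and Oasl1, neither of which was called. These 2 were looked up after their values were seen. Calls numbered 18 without EHE6_1, 26 without EHE6_2, 42 without EHE6_3, 23 without either EHE26 library, and 32, 27 and 33 without EHE17_1, EHE17_2 and EHE17_3. With EHE6_3 as the sole EHE6 library, 17 of the 44 were called higher (0.28% of all tested genes were). This list and the others were chosen with earlier results of these data known.

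Promoter sequence is shown for 6 genes of the interferon and MHC class I lists, because the response element of the interferon pathway can be read in it. The sequences are the 150 bases before the start site from RefSeq (GRCm38.p6), 5′ to 3′ on the gene's strand, with capitals marking matches to the motif searched, GAAA, any 2 bases and GAAA again, or its reverse complement (TTTC, any 2 bases, TTTC). They come from chr4:156200819-156200968 (minus strand), chr19:34640739-34640888 (plus), chr12:26456453-26456602 (minus), chr5:120777660-120777809 (minus), chr2:122147537-122147686 (plus) and chr17:36032702-36032851 (minus).
Isg15: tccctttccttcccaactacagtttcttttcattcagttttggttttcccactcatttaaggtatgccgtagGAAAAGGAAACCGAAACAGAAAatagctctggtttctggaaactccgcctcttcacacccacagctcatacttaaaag
Ifit1: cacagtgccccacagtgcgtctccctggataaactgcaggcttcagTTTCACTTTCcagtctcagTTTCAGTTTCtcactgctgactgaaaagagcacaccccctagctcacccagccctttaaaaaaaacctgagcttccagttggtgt
Rsad2: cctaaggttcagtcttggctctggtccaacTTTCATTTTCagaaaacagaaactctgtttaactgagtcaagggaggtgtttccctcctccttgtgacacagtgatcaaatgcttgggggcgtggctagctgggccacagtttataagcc
Oas3: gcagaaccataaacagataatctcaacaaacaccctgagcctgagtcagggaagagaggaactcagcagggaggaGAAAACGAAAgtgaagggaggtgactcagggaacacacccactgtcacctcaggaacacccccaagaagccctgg
B2m: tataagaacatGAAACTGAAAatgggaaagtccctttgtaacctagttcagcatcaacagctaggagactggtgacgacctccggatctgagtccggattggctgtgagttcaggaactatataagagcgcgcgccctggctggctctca
H2-T23: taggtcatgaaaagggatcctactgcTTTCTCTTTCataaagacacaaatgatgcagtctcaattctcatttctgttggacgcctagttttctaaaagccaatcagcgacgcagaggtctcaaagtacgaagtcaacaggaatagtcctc
Isg15, Ifit1, Rsad2 and H2-T23 were picked after their values were seen. Only promoter windows with a match were printed, so a match in each of the 6 was fixed in advance. Isg15 held 3 matches, starting 78, 72 and 66 bases before the start site, Ifit1 held 2 and the other 4 promoters held 1 each. In windows of 300 bases around the start (250 before and 50 after), the motif was found on either strand in 3.99% of 27025 genes and in 3.81% of the 12479 tested genes with a window. It was in 21 of 35 interferon effectors with a window (60%), 5 of 16 MHC class I genes and 45 of the 148 genes called higher (30.4%). Among genes called lower it was in 3 of 20. Among the higher genes of the test without EHE6_3 it was in 52 of 226 (23%) where EHE6_3 lay with EHE6 and in 10 of 260 (3.85%) where it lay with EHE26. A match is a run of letters and does not show binding.

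Ifi44, an interferon-induced protein of the cytoplasm, stood at 0.943, 1.0 and 2.48 CPM in EHE6 and 393 and 539 CPM in EHE26 (log2 fold change 8.31 ± 0.63, adjusted p = 0.00159). EHE6_3 was the highest EHE6 library and still lay with EHE6, far below EHE26, and the call held in all 8 fits that left out a library. Ifit3, whose product binds viral RNA together with its relatives, had 1.12, 0.903 and 3.63 CPM in EHE6 and 348 and 424 CPM in EHE26 (log2 fold change 7.69 ± 0.69, adjusted p = 0.00259), and it too was called in all 8 fits. Isg15, a ubiquitin-like protein that is attached to other proteins during infection, had 0.552, 0.536 and 4.08 CPM in EHE6 and 296 and 386 CPM in EHE26 (log2 fold change 7.65 ± 1.08, adjusted p = 0.0184). EHE6_3 exceeded EHE6_1 and EHE6_2 several-fold there but lay with EHE6 by the rule, and the call was lost without EHE17_2, EHE26_1, EHE26_2, EHE6_1 or EHE6_2 (adjusted p 0.0528 to 0.0827). Usp18, the protease that removes Isg15 and dampens receptor signalling, had 0.593, 0.339 and 1.68 CPM in EHE6 and 161 and 215 CPM in EHE26 (log2 fold change 7.77 ± 0.87, adjusted p = 0.00604), with EHE6_3 again nearer to EHE6. Its call was lost without EHE6_1 (adjusted p 0.0523). Ifit1, which binds viral RNA with Ifit3, had 1.02, 0.536 and 3.93 CPM in EHE6 and 97.7 and 167 CPM in EHE26 (log2 fold change 6.19 ± 0.87, adjusted p = 0.0172), and Rsad2, the antiviral enzyme viperin, had 1.75, 1.5 and 2.61 CPM in EHE6 and 113 and 129.5 CPM in EHE26 (log2 fold change 5.96 ± 0.51, adjusted p = 0.00201). Both EHE26 libraries were far above all EHE6 libraries at each, EHE6_3 lay with EHE6, and the Ifit1 call was lost without EHE26_1, EHE26_2 or EHE6_1 (adjusted p 0.056 to 0.101). Ifit1, Ifit3, Isg15 and Rsad2 are outside the rule for named genes and were chosen after their values were seen. Ifit3 and Ifit3b are near-identical copies, so reads may be split between them.

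Mx1 and Mx2, dynamin-like GTPases that block viral replication, were under 1 CPM in EHE6. Mx1 had 0.0943, 0.0141 and 0.168 CPM in EHE6 and 26.8 and 14.5 CPM in EHE26 (log2 fold change 7.83 ± 0.88, adjusted p = 0.00604), and Mx2 had 0.216, 0.0847 and 0.147 CPM in EHE6 and 23.8 and 23 CPM in EHE26 (log2 fold change 7.27 ± 0.58, adjusted p = 0.00159). EHE6_3 lay with EHE6 for both, inside the EHE6 range for Mx2. The Mx1 call was lost without EHE26_1 or EHE6_1 (adjusted p 0.0524 to 0.0535). Oas3, which makes the second messenger that activates RNase L, had 0.283, 0.127 and 0.924 CPM in EHE6 and 60.5 and 187 CPM in EHE26 (log2 fold change 8.15 ± 0.92, adjusted p = 0.00638). Its EHE6_3 level was the highest of EHE6 and lay with EHE6, and the call was lost without EHE6_1 (adjusted p 0.0528). Gbp3, a guanylate-binding protein that attacks the membranes around intracellular microbes, had 1.98, 1.62 and 1.43 CPM in EHE6 and 125 and 109 CPM in EHE26 (log2 fold change 6.12 ± 0.33, adjusted p = 0.000743), the smallest adjusted p of any gene along with Hoxb7. EHE6_3 was the lowest library for Gbp3, and all 8 fits called it. Bst2, also called tetherin, which holds budding virus at the cell surface, was well expressed in both lines at 387, 308 and 259.8 CPM in EHE6 and 2168 and 1617 CPM in EHE26 (log2 fold change 2.57 ± 0.41, adjusted p = 0.0266). Its EHE6_3 value was the lowest of the 5 libraries and lay with EHE6, and the call was lost without EHE17_2, EHE26_1, EHE26_2, EHE6_1 or EHE6_2 (adjusted p 0.0682 to 0.187). Mx2 and Gbp3 were chosen after their values were seen.

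At some effectors EHE6_3 lay between the groups. Ifitm3, a membrane protein that hinders virus entry, had 91.8, 54.7 and 177 CPM in EHE6 and 1030.0 and 1174 CPM in EHE26 (log2 fold change 3.35 ± 0.53, adjusted p = 0.0278), and the call was lost without EHE17_2, EHE26_1, EHE26_2, EHE6_1 or EHE6_2 (adjusted p 0.0658 to 0.162). Ifi27l2a, a mitochondrial interferon-induced protein, had 0.242, 0.169 and 7.06 CPM in EHE6 and 509.7 and 225 CPM in EHE26. Its EHE6_3 value was above EHE6_1 and EHE6_2 and below EHE26, and it was not called with all libraries (log2 fold change 7.22 ± 1.82, adjusted p = 0.136) but was without EHE6_3 (log2 fold change 10.79, adjusted p = 0.00739). Oasl2, a relative of the OAS enzymes, followed the same order at 0.862, 0.423 and 8.3 CPM in EHE6 and 285 and 373 CPM in EHE26 (log2 fold change 6.70 ± 1.28, adjusted p = 0.0579), and was called without EHE6_3 (log2 fold change 9.0, adjusted p = 0.00164).

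Genes of interferon receptors and signalling act upstream of these effectors. Of 20 interferon receptor and signalling genes, 4 were called higher and none lower, against 1.1% of all tested genes called higher. At an unadjusted p under 0.05, 6 were higher, against 6.85%. EHE6_3 lay with EHE6 at 5 of the 8 with a place, between at 1 and with EHE26 at 2. Irf7, the factor that amplifies type I interferon production, had 1.12, 0.677 and 7.16 CPM in EHE6 and 566 and 808 CPM in EHE26 (log2 fold change 7.86 ± 1.14, adjusted p = 0.0202). EHE6_3 was several-fold above EHE6_1 and EHE6_2 and lay with EHE6, and the call was lost without EHE17_2, EHE26_1, EHE26_2, EHE6_1 or EHE6_2 (adjusted p 0.0503 to 0.101). Stat2, a transcription factor activated at the receptor, had 11.4, 14.3 and 31.2 CPM in EHE6 and 201 and 236 CPM in EHE26 (log2 fold change 3.53 ± 0.43, adjusted p = 0.00931), with EHE6_3 lying with EHE6 but above its partners, and the call was lost without EHE26_2 or EHE6_2 (adjusted p 0.0561 to 0.0659). Irf9, its DNA-binding partner, had 10.2, 12.4 and 18.1 CPM in EHE6 and 134 and 126 CPM in EHE26 (log2 fold change 3.26 ± 0.34, adjusted p = 0.00508). The call held in all 8 fits, with EHE6_3 on the EHE6 side. The receptor chain Ifnar1 was not called at 189, 213 and 60.7 CPM in EHE6 and 211 and 119 CPM in EHE26 (adjusted p = 0.958), nor was the kinase Jak1 at 439, 444 and 213 CPM in EHE6 and 290.4 and 262 CPM in EHE26 (adjusted p = 0.704). In both, EHE6_3 was the lowest library and the groups overlapped. Irf9 was chosen after its values were seen.

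Sensors of nucleic acid were called higher at 5 of 18 tested genes and lower at none, against 1.1% of all tested genes called higher. Without EHE6_3, 10 were called higher, against 4.39% of all tested genes, and 1 lower, the DNA sensor Aim2 (log2 fold change -6.51, adjusted p = 0.0278), which DESeq2 also called with all libraries. Aim2 had 27.4, 39.2 and 1.74 CPM in EHE6 and 0.331 and 0.395 CPM in EHE26 and was named after its values were seen. Its EHE6_3 level was far below EHE6_1 and EHE6_2 and above both EHE26 libraries. Zbp1, Ifih1 and Dhx58 are also on the effector list. Zbp1, a sensor of Z-form nucleic acid, had 0.135, 0 and 0.105 CPM in EHE6 and 23.1 and 14.6 CPM in EHE26 (log2 fold change 7.86 ± 1.22, adjusted p = 0.0255), and the call was lost without EHE17_2, EHE26_1, EHE26_2 or EHE6_1 (adjusted p 0.0587 to 0.154). Ripk3, the kinase through which Zbp1 triggers necroptosis, had 1.72, 3.64 and 2.33 CPM in EHE6 and 57.2 and 75.9 CPM in EHE26 (log2 fold change 4.70 ± 0.38, adjusted p = 0.00159). EHE6_3 was inside the EHE6 range for both, and Ripk3 was called in all 8 fits. Ifih1, the MDA5 sensor of long double-stranded RNA, had 2.61, 3.16 and 7.52 CPM in EHE6 and 114 and 131 CPM in EHE26 (log2 fold change 4.79 ± 0.47, adjusted p = 0.00377), and Dhx58, its regulator LGP2, had 0.876, 1.96 and 3.07 CPM in EHE6 and 88.1 and 93.3 CPM in EHE26 (log2 fold change 5.53 ± 0.57, adjusted p = 0.00456). EHE6_3 was the highest EHE6 library in both and lay with EHE6. Adar, the RNA editor that keeps self RNA from being sensed, had 38.3, 40.2 and 46.5 CPM in EHE6 and 146 and 179 CPM in EHE26 (log2 fold change 1.97 ± 0.30, adjusted p = 0.0251). It too had EHE6_3 on the EHE6 side, and its call was lost without EHE17_1, EHE26_1, EHE26_2, EHE6_1 or EHE6_2 (adjusted p 0.0625 to 0.197). Tmem173, which encodes the adaptor STING, was not called at 143, 106 and 36.2 CPM in EHE6 and 154 and 107 CPM in EHE26 (adjusted p = 0.725), with overlapping groups and EHE6_3 the lowest library. Ripk3 and Adar were named after their values were seen.

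Genes of MHC class I presentation were called higher in EHE26 at 14 of 19, against 1.1% of all tested genes, and lower at none. All 19 had a positive fold change with a median of 4.23. EHE6_3 lay with EHE6 at 13 and between at 6, and with EHE26 at none. The median difference from EHE6_1 and EHE6_2 was 4.36 in EHE26 and 0.61 in EHE6_3. Calls numbered 8, 7 and 16 without EHE6_1, EHE6_2 and EHE6_3, 8 and 9 without EHE26_1 and EHE26_2, and 13, 11 and 13 without EHE17_1, EHE17_2 and EHE17_3. With EHE6_3 as the sole EHE6 library, 2 were called. H2-K1, a classical class I heavy chain (chr17:33996017-34000347, GRCm38), had 113, 86.9 and 111 CPM in EHE6 and 3225 and 2401 CPM in EHE26 (log2 fold change 4.76 ± 0.37, adjusted p = 0.00159). H2-D1, the other classical heavy chain of many strains, had 146, 112 and 253 CPM in EHE6 and 3493 and 2919 CPM in EHE26 (log2 fold change 4.23 ± 0.53, adjusted p = 0.0101), and B2m, the light chain shared by all class I molecules, had 295, 270.4 and 353 CPM in EHE6 and 3238 and 2902 CPM in EHE26 (log2 fold change 3.33 ± 0.46, adjusted p = 0.0172). The 3 EHE6 libraries, EHE6_3 included, were together well below both EHE26 libraries in each. H2-K1 was called in all 8 fits, while the B2m call was lost without EHE26_1, EHE26_2, EHE6_1 or EHE6_2 (adjusted p 0.0841 to 0.106) and the H2-D1 call without EHE26_1, EHE6_1 or EHE6_2 (adjusted p 0.0547 to 0.0802).

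Nlrc5, the transcriptional activator of class I genes, had 0.714, 0.748 and 0.567 CPM in EHE6 and 57.1 and 69 CPM in EHE26 (log2 fold change 6.53 ± 0.58, adjusted p = 0.0024). EHE6_3 was its lowest library and all 8 fits called it. The peptide transporter subunit Tap1 had 11.8, 11 and 11.1 CPM in EHE6 and 237 and 230.4 CPM in EHE26 (log2 fold change 4.37 ± 0.32, adjusted p = 0.00159), with EHE6_3 inside a narrow EHE6 range. Its partner Tap2 had 11.3, 12.2 and 18.1 CPM in EHE6 and 44.2 and 39.1 CPM in EHE26 (log2 fold change 1.59 ± 0.30, adjusted p = 0.0577), was not called and placed EHE6_3 between the groups. Psmb9, a subunit of the immunoproteasome, had 1.62, 1.13 and 1.03 CPM in EHE6 and 58.5 and 36 CPM in EHE26 (log2 fold change 5.23 ± 0.50, adjusted p = 0.00322), and H2-T23, the Qa-1 molecule read by natural killer cells, had 8.65, 9.17 and 9.16 CPM in EHE6 and 428 and 418 CPM in EHE26 (log2 fold change 5.55 ± 0.52, adjusted p = 0.00296). EHE6_3 lay with EHE6 in both. H2-Q6 and H2-Q7, non-classical class I genes of the Qa region, had 0.579, 0.452 and 1.13 CPM in EHE6 and 345 and 277 CPM in EHE26 and 0.62, 0.423 and 1.03 CPM in EHE6 and 326 and 275 CPM in EHE26 in turn, with log2 fold changes of 8.76 and 8.77. These are near-identical copies whose reads may be split, so their separate values are uncertain, and EHE6_3 lay with EHE6 for each. The H2-Q7 call was lost without EHE6_1 or EHE6_2 (adjusted p 0.0692 to 0.0862). Tap1, Tap2, Psmb9 and H2-T23 were chosen after their values were seen. The 6 leukocyte marker genes summed to 4.47 to 12.4 CPM over the 5 libraries and none was called. Their part in these differences was not tested. Ptprc, the common leukocyte antigen CD45, had 0.593, 0.522 and 1.49 CPM in EHE6 and 0.497 and 0.79 CPM in EHE26, and the groups overlapped.

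**Figure D2:**
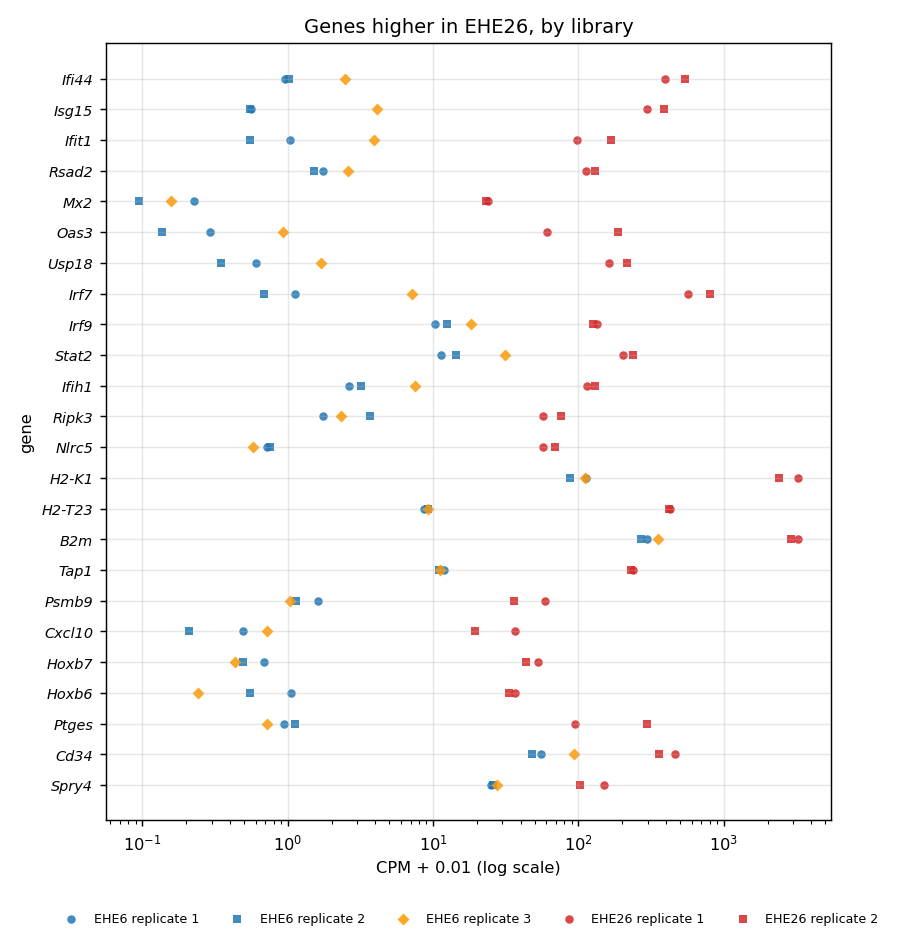
CPM + 0.01 on a log axis for 24 genes called higher in EHE26, 1 symbol per library. EHE6 replicate 3 (diamonds) sits left of, among or right of EHE6 replicates 1 and 2 (blue), and below both EHE26 libraries (red) at every gene drawn, for example 4.08 CPM for Isg15 against 296 and 386.

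Chemokine genes were called higher at 2 of 11, against 1.1% of all tested genes. Cxcl10, which attracts activated T cells, had 0.485, 0.198 and 0.714 CPM in EHE6 and 36.6 and 19.4 CPM in EHE26 (log2 fold change 5.91 ± 0.98, adjusted p = 0.0327), and EHE6_3 lay with EHE6. Ackr4, a receptor that scavenges chemokines, had 0.0808, 0.169 and 0.294 CPM in EHE6 and 103 and 5.5 CPM in EHE26 (log2 fold change 8.25 ± 1.23, adjusted p = 0.0227). The EHE26 libraries differed widely from each other there, EHE6_3 lay with EHE6, and the call was lost without EHE17_1, EHE17_2, EHE26_1, EHE6_1 or EHE6_2 (adjusted p 0.0527 to 0.13). For Cxcl10 it was lost without EHE17_1, EHE17_2, EHE26_1, EHE26_2, EHE6_1 or EHE6_2 (adjusted p 0.05 to 0.177). Cx3cl1, the membrane-bound chemokine fractalkine, had 51, 67.7 and 180.5 CPM in EHE6 and 790.1 and 618 CPM in EHE26 and was not called (log2 fold change 2.82 ± 0.55, adjusted p = 0.0595), with EHE6_3 between the groups.

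Hox genes encode transcription factors that fix position along the body axis and stay set in cultured cells. Of 39 Hox genes 23 were tested, and 5 were called higher and none lower, against 1.1% of all tested genes called higher. All 5 belong to the Hoxb cluster on chromosome 11. Hoxb7 (chr11:96286623-96290162) had 0.673, 0.48 and 0.42 CPM in EHE6 and 52.4 and 43.7 CPM in EHE26 (log2 fold change 6.51 ± 0.36, adjusted p = 0.000743), and Hoxb6 (chr11:96292476-96301569) had 1.05, 0.536 and 0.231 CPM in EHE6 and 36.8 and 33 CPM in EHE26 (log2 fold change 5.83 ± 0.60, adjusted p = 0.00456). EHE6_3 was the lowest library of each and lay with EHE6, and both were called in all 8 fits. Hoxb8 had 0.727, 0.833 and 0.231 CPM in EHE6 and 19.5 and 29.1 CPM in EHE26 (log2 fold change 5.33 ± 0.62, adjusted p = 0.00741), lost without EHE6_1 (adjusted p 0.0523). Hoxb3 had 0.31, 0.113 and 0.042 CPM in EHE6 and 7.71 and 6.25 CPM in EHE26 (log2 fold change 5.45 ± 0.78, adjusted p = 0.0191), with a call lost without EHE26_1, EHE26_2 or EHE6_2 (adjusted p 0.0769 to 0.106), and Hoxb4 had 0.539, 0.437 and 0.084 CPM in EHE6 and 4.3 and 5.31 CPM in EHE26 (log2 fold change 3.74 ± 0.68, adjusted p = 0.0481), with a call lost without EHE17_1, EHE17_2, EHE17_3, EHE26_1, EHE26_2, EHE6_1 or EHE6_2 (adjusted p 0.061 to 0.225). Again EHE6_3 was the lowest library at all 3. Hoxb4 and Hoxb8 were named after their values were seen.

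At the Hoxa genes Hoxa5, Hoxa6 and Hoxa7 EHE6_3 lay elsewhere. Its places at the other tested Hoxa genes are not given here, so the cluster as a whole is not described. Hoxa7 had 0.108, 0.367 and 8.55 CPM in EHE6 and 41.6 and 34 CPM in EHE26 and was not called with all libraries (log2 fold change 3.66 ± 1.46, adjusted p = 0.297), but was without EHE6_3 (log2 fold change 7.32, adjusted p = 0.00319), and EHE6_3 lay with EHE26. Hoxa5 had 0.0135, 0.48 and 7.19 CPM in EHE6 and 9.77 and 8.53 CPM in EHE26 (log2 fold change 1.84 ± 1.52, adjusted p = 0.601, and log2 fold change 5.22, adjusted p = 0.0338 without EHE6_3). Hoxa6 had 0, 0.0564 and 3.84 CPM in EHE6 and 3.24 and 3.22 CPM in EHE26 (log2 fold change 1.32 ± 1.78, adjusted p = 0.774, and log2 fold change 6.77, adjusted p = 0.0136 without EHE6_3). At these 3 Hoxa genes EHE6_1 and EHE6_2 were low, and EHE6_3 lay with EHE26 on the log scale, below both EHE26 libraries for Hoxa5 and Hoxa7 and above them for Hoxa6. Over the list, EHE6_3 lay with EHE6 at 7 genes and with EHE26 at 11, beside 50.9% of all genes higher in EHE26. Without EHE6_3, 12 genes were called higher, against 4.39% of all tested genes. Calls fell to 3 without EHE6_1, EHE6_2, EHE26_1 or EHE26_2. The Hoxa genes were chosen after their values were seen. Hoxd8, the Hox gene with the highest mean CPM here, had 35, 37.7 and 111 CPM in EHE6 and 70.3 and 60.4 CPM in EHE26 and was not called (adjusted p = 0.956), with EHE6_3 above both EHE26 libraries.

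Enzymes of prostaglandin and redox metabolism included calls in both directions, 1 higher and 2 lower of 16, against 1.1% and 0.159% of all tested genes. Ptges, which makes prostaglandin E2, had 0.929, 1.11 and 0.714 CPM in EHE6 and 94.1 and 295 CPM in EHE26 (log2 fold change 7.72 ± 0.72, adjusted p = 0.00296). EHE6_3 was its lowest library, and all 8 fits called it. Nox4, an oxidase that makes hydrogen peroxide in endothelium and muscle, had 76.8, 97.9 and 12.5 CPM in EHE6 and 0.442 and 0.307 CPM in EHE26 (log2 fold change -7.37 ± 1.15, adjusted p = 0.0257). Its EHE6_3 level lay between the groups, well below the other EHE6 libraries, and the call was lost without EHE17_2, EHE26_1, EHE26_2, EHE6_1 or EHE6_2 (adjusted p 0.0544 to 0.231). Pir, the iron-binding protein pirin, had 8.8, 5.73 and 9.81 CPM in EHE6 and 0.166 and 0.0219 CPM in EHE26 (log2 fold change -6.37 ± 0.96, adjusted p = 0.023). EHE6_3 was its highest library, and the call was lost without EHE17_2, EHE26_1, EHE26_2, EHE6_1 or EHE6_2 (adjusted p 0.0594 to 0.133). Hmox1, the haem-degrading enzyme, had 842, 743 and 73.3 CPM in EHE6 and 118 and 104 CPM in EHE26 and was not called with all libraries (log2 fold change -2.31 ± 0.90, adjusted p = 0.29), while it was without EHE6_3 (log2 fold change -2.83, adjusted p = 0.00809) and EHE6_3 lay with EHE26.

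Cholesterol synthesis genes were called higher at 2 of 20, against 1.1% of all tested genes. All 20 had a positive fold change with a median of 1.64, against -0.11 over all tested genes. By unadjusted p, 15 were under 0.05 and higher, against 6.85% of all tested genes. EHE6_3 lay with EHE6 at 8 and between at 6 of the 14 with a place. Lss, which forms the sterol ring, had 14.5, 12 and 8.89 CPM in EHE6 and 89.7 and 51.9 CPM in EHE26 (log2 fold change 2.59 ± 0.34, adjusted p = 0.0128), and Hsd17b7, an enzyme of a later step, had 19.6, 18.7 and 15.1 CPM in EHE6 and 101 and 61.1 CPM in EHE26 (log2 fold change 2.19 ± 0.35, adjusted p = 0.028). EHE6_3 was the lowest library for both. The Lss call was lost without EHE26_1, EHE6_1 or EHE6_2 (adjusted p 0.0531 to 0.134) and the Hsd17b7 call without EHE17_1, EHE26_1, EHE26_2, EHE6_1 or EHE6_2 (adjusted p 0.0683 to 0.244). Without EHE6_3, 8 genes of the list were called higher, against 4.39% of all tested genes.

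Among the genes called higher were also single members of other lists. Cd34, a surface sialomucin of endothelial and progenitor cells, had 55.6, 47.6 and 92.7 CPM in EHE6 and 461 and 357 CPM in EHE26 (log2 fold change 2.65 ± 0.36, adjusted p = 0.0168), the only pan-endothelial gene called. EHE6_3 was its highest EHE6 library and lay with EHE6, and the call was lost without EHE26_1, EHE26_2, EHE6_1 or EHE6_2 (adjusted p 0.0726 to 0.119). Spry4, a feedback inhibitor of ERK signalling, had 25, 25.7 and 27.6 CPM in EHE6 and 149 and 103 CPM in EHE26 (log2 fold change 2.27 ± 0.25, adjusted p = 0.00582), with EHE6_3 beside its partners and the call lost without EHE26_1 or EHE6_1 (adjusted p 0.0509 to 0.0629). Mmp13, a collagenase, had 0.337, 0.169 and 0.147 CPM in EHE6 and 11.6 and 12.1 CPM in EHE26 (log2 fold change 5.75 ± 0.68, adjusted p = 0.00754). Bmx, a kinase of arterial endothelium, had 1.6, 1.64 and 1.13 CPM in EHE6 and 27 and 8.82 CPM in EHE26 (log2 fold change 3.61 ± 0.62, adjusted p = 0.0375), and Pdgfrl, a receptor-like protein, had 2.48, 2.27 and 1.72 CPM in EHE6 and 43.3 and 29.7 CPM in EHE26 (log2 fold change 4.08 ± 0.62, adjusted p = 0.0233). For these 3 genes EHE6_3 was the lowest library, on the EHE6 side. The call was lost for Mmp13 without EHE26_1 or EHE6_2 (adjusted p 0.0535 to 0.0554), for Bmx without EHE17_1, EHE17_2, EHE26_1, EHE6_1 or EHE6_2 (adjusted p 0.0625 to 0.278) and for Pdgfrl without EHE26_1, EHE26_2, EHE6_1 or EHE6_2 (adjusted p 0.0871 to 0.152).

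Of the 207 genes called higher, 54 belonged to the interferon, sensing or class I lists and 138 to no list. Those 138 included relatives of listed genes, such as Gbp5, Irgm2, Oas1b and Trim30d. The motif searched in promoters was in 22 of the 95 with a window (23.2%), against 3.81% of tested genes. Genes outside the lists are described here after their values were seen. Gata4, a factor of heart and gut endoderm, had 34.7, 35.6 and 35.6 CPM in EHE6 and 139 and 236 CPM in EHE26 (log2 fold change 2.41 ± 0.28, adjusted p = 0.00741), with almost the same level in all 3 EHE6 libraries. Inhba, the activin A subunit, had 10.8, 11.8 and 12.2 CPM in EHE6 and 87.2 and 155 CPM in EHE26 (log2 fold change 3.38 ± 0.61, adjusted p = 0.0462). Ereg, the EGF receptor ligand epiregulin, had 7.33, 9.68 and 15.4 CPM in EHE6 and 95.8 and 286 CPM in EHE26 (log2 fold change 4.15 ± 0.61, adjusted p = 0.0216), and Syk, a kinase of immune receptors, had 0.431, 0.282 and 1.72 CPM in EHE6 and 33.1 and 72.5 CPM in EHE26 (log2 fold change 6.04 ± 0.82, adjusted p = 0.0157). EHE6_3 was the highest EHE6 library in Ereg and Syk and lay with EHE6 in all 4 genes. Hpse, the enzyme that cuts heparan sulfate, had 0.902, 1.1 and 1.26 CPM in EHE6 and 24 and 59.8 CPM in EHE26 (log2 fold change 5.27 ± 0.52, adjusted p = 0.00364), and Tubb3, a neuronal tubulin, had 13.4, 9.71 and 15.7 CPM in EHE6 and 174 and 102 CPM in EHE26 (log2 fold change 3.42 ± 0.33, adjusted p = 0.00364). Both were called in all 8 fits, again with EHE6_3 on the EHE6 side. Cd274, the PD-L1 ligand that restrains T cells, had 0.202, 0.593 and 0.357 CPM in EHE6 and 6.94 and 8.4 CPM in EHE26 (log2 fold change 4.31 ± 0.61, adjusted p = 0.0179), with EHE6_3 inside the EHE6 range. The other calls were lost for Gata4 without EHE26_2, EHE6_1 or EHE6_2 (adjusted p 0.0535 to 0.0598), Inhba without EHE17_1, EHE26_1, EHE26_2, EHE6_1 or EHE6_2 (adjusted p 0.101 to 0.273), Ereg without EHE26_2, EHE6_1 or EHE6_2 (adjusted p 0.112 to 0.119), Syk without EHE26_2 or EHE6_1 (adjusted p 0.0862 to 0.0926) and Cd274 without EHE26_1, EHE26_2 or EHE6_1 (adjusted p 0.0802 to 0.121).

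Genes called lower in EHE26 were fewer, and 15 of the 30 were under 1 CPM in both EHE26 libraries. Fez1, a transport adaptor best known from neurons (chr9:36821864-36878924), had 48.4, 43.2 and 52.5 CPM in EHE6 and 1.67 and 0.899 CPM in EHE26 (log2 fold change -5.22 ± 0.40, adjusted p = 0.00159). Eps8l1, a regulator of actin, had 13.5, 17.9 and 13.4 CPM in EHE6 and 0.662 and 0.439 CPM in EHE26 (log2 fold change -4.75 ± 0.39, adjusted p = 0.00163). EHE6_3 stood with EHE6 at both, and all 8 fits called them. Kbtbd11 had 21.1, 20.2 and 4.56 CPM in EHE6 and 0.0552 and 0.0877 CPM in EHE26 (log2 fold change -7.72 ± 0.93, adjusted p = 0.00841), and Kctd12b, a protein with a potassium channel tetramerisation domain, had 38.2, 48.2 and 14.8 CPM in EHE6 and 1.38 and 0.899 CPM in EHE26 (log2 fold change -4.88 ± 0.61, adjusted p = 0.0104). Their EHE6_3 levels were under those of EHE6_1 and EHE6_2 yet lay with EHE6. Ebf1, a factor of B cell and stromal fate, had 7.5, 6.34 and 57.3 CPM in EHE6 and 0.11 and 0.0877 CPM in EHE26 (log2 fold change -7.87 ± 1.34, adjusted p = 0.0375), with EHE6_3 several-fold above its partners. Sox13, a factor of the SOX family, had 59.3, 62 and 5.69 CPM in EHE6 and 0.681 and 0.439 CPM in EHE26 (log2 fold change -6.23 ± 1.09, adjusted p = 0.0415) and placed EHE6_3 between. Calls were lost for Kbtbd11 without EHE26_1 or EHE26_2 (adjusted p 0.0871 to 0.118), Kctd12b without EHE26_1, EHE26_2 or EHE6_1 (adjusted p 0.051 to 0.11), Ebf1 without EHE17_1, EHE17_2, EHE17_3, EHE26_1, EHE26_2 or EHE6_1 (adjusted p 0.051 to 0.299) and Sox13 without EHE17_1, EHE17_2, EHE17_3, EHE26_1, EHE26_2, EHE6_1 or EHE6_2 (adjusted p 0.054 to 0.31).

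Ocln, the tight junction protein occludin, had 75.9, 87.1 and 35.9 CPM in EHE6 and 5.22 and 2.11 CPM in EHE26 (log2 fold change -4.17 ± 0.69, adjusted p = 0.0339), the only epithelial list member called of 14. EHE6_3 was its lowest EHE6 library, on the EHE6 side, and the call was lost without EHE17_1, EHE17_2, EHE26_1, EHE26_2, EHE6_1 or EHE6_2 (adjusted p 0.0721 to 0.231). Over the 14 epithelial genes no fold change was positive. The median was -5.17, or -4.06 with a floor of 3 counts where a line had no read. At an unadjusted p under 0.05, 7 were lower, and DESeq2 called 5 lower, against 9.04% and 4.84% of all tested genes. EHE6_3 lay with EHE26 at 10 of the 13 with a place, beside 69.6% of all genes lower in EHE26. AI506816, a processed transcript, had 126, 102 and 201 CPM in EHE6 and 4.62 and 5.24 CPM in EHE26 (log2 fold change -4.86 ± 0.54, adjusted p = 0.0059), with EHE6_3 the highest library. Pcbd1, a cofactor of a hepatic transcription factor, had 12.5, 9.85 and 12.6 CPM in EHE6 and 0.846 and 0.658 CPM in EHE26 (log2 fold change -3.95 ± 0.55, adjusted p = 0.0171), and EHE6_3 matched EHE6_1. Calls were lost for AI506816 without EHE26_1 or EHE26_2 (adjusted p 0.074 to 0.0834) and Pcbd1 without EHE26_1, EHE26_2, EHE6_1 or EHE6_2 (adjusted p 0.0546 to 0.189). Edn3, a vasoactive peptide chosen after its values were seen, had 1.39, 1.85 and 0.777 CPM in EHE6 and 0 and 0 CPM in EHE26. With no read in EHE26 it was at least 53.7-fold lower there than in EHE6_1 and EHE6_2, taking a floor of 3 counts over the EHE26 libraries, and EHE6_3 lay with EHE6. The limit was 24.5-fold without EHE26_1 and 29.2-fold without EHE26_2, and its call was lost without EHE17_2, EHE26_1, EHE26_2, EHE6_1 or EHE6_2 (adjusted p 0.0612 to 0.154).

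Rps3a2 and Rps3a3 are copies of the ribosomal protein gene Rps3a1. Rps3a2 (chr14:88123017-88123808) had 143, 104 and 163 CPM in EHE6 and 4.69 and 4.34 CPM in EHE26 (log2 fold change -4.92 ± 0.42, adjusted p = 0.00201), and Rps3a3 (chr13:108670603-108671397) had 124, 91.5 and 133 CPM in EHE6 and 5.87 and 6.36 CPM in EHE26 (log2 fold change -4.25 ± 0.34, adjusted p = 0.00159). All 3 EHE6 libraries were high and both EHE26 libraries low, and all 8 fits called both genes. Rps3a1, looked up after these values were seen, had 741, 525 and 978 CPM in EHE6 and 1138 and 1158 CPM in EHE26 and was not called (log2 fold change 0.62 ± 0.30, adjusted p = 0.352). Reads may be split among these near-identical copies, so the separate levels are uncertain.

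Genes of the Y chromosome were read in EHE6 and nearly absent in EHE26. Ddx3y, an RNA helicase, had 65.5, 101 and 43.2 CPM in EHE6 and 0.092 and 0.0877 CPM in EHE26 (log2 fold change -9.57 ± 1.24, adjusted p = 0.012), and Kdm5d, a histone demethylase, had 18.2, 32.2 and 26 CPM in EHE6 and 0.11 and 0.0439 CPM in EHE26 (log2 fold change -8.31 ± 1.44, adjusted p = 0.0391). Eif2s3y had 31, 53.6 and 42.5 CPM in EHE6 and 0 and 0.395 CPM in EHE26 (adjusted p = 0.135) and Uty had 16.6, 24.3 and 10.8 CPM in EHE6 and 0 and 0.0658 CPM in EHE26 (adjusted p = 0.0647), so 2 of 4 listed genes were called. All 4 were called without EHE6_3, and EHE6_3 lay with EHE6 at all 4. Over all tested genes, 0.159% were called lower with all libraries and 4.2% without EHE6_3. Xist, the RNA that silences an X chromosome, had 18.5, 14.1 and 3.97 CPM in EHE6 and 295 and 334 CPM in EHE26 (log2 fold change 4.69 ± 0.81, adjusted p = 0.0389), and its EHE6_3 level was the lowest of the 5. Calls were lost for Ddx3y without EHE26_1, EHE26_2 or EHE6_1 (adjusted p 0.0523 to 0.139), Kdm5d without EHE17_1, EHE17_2, EHE26_1, EHE26_2, EHE6_1 or EHE6_2 (adjusted p 0.0817 to 0.308) and Xist without EHE17_2, EHE26_1, EHE26_2, EHE6_1 or EHE6_2 (adjusted p 0.0528 to 0.176). At these genes EHE6_3 was on the EHE6 side, in contrast to its place on the first principal component.

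Mitochondrially encoded genes, which give subunits of the respiratory chain, all had negative fold changes (13 of 13, median -2.25). Of these 1 was called lower, against 0.159% of all tested genes. At an unadjusted p under 0.05, 10 were lower, and DESeq2 called 9 lower, against 9.04% and 4.84% of all tested genes. EHE6_3 lay with EHE6 at 4 of the 11 with a place, between at 5 and with EHE26 at 2. mt-Nd2 had 836, 726 and 566 CPM in EHE6 and 166 and 131 CPM in EHE26 (log2 fold change -2.25 ± 0.34, adjusted p = 0.023), with EHE6_3 on the EHE6 side. mt-Co1 had 8211, 9976 and 3292 CPM in EHE6 and 1411 and 1446 CPM in EHE26 and was not called (log2 fold change -2.33 ± 0.60, adjusted p = 0.142), and EHE6_3 lay between. Without EHE6_3, 8 of 13 were called lower, against 4.2% of all tested genes. The mt-Nd2 call was lost without EHE26_1, EHE26_2, EHE6_1 or EHE6_2 (adjusted p 0.0874 to 0.244).

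**Figure D3:**
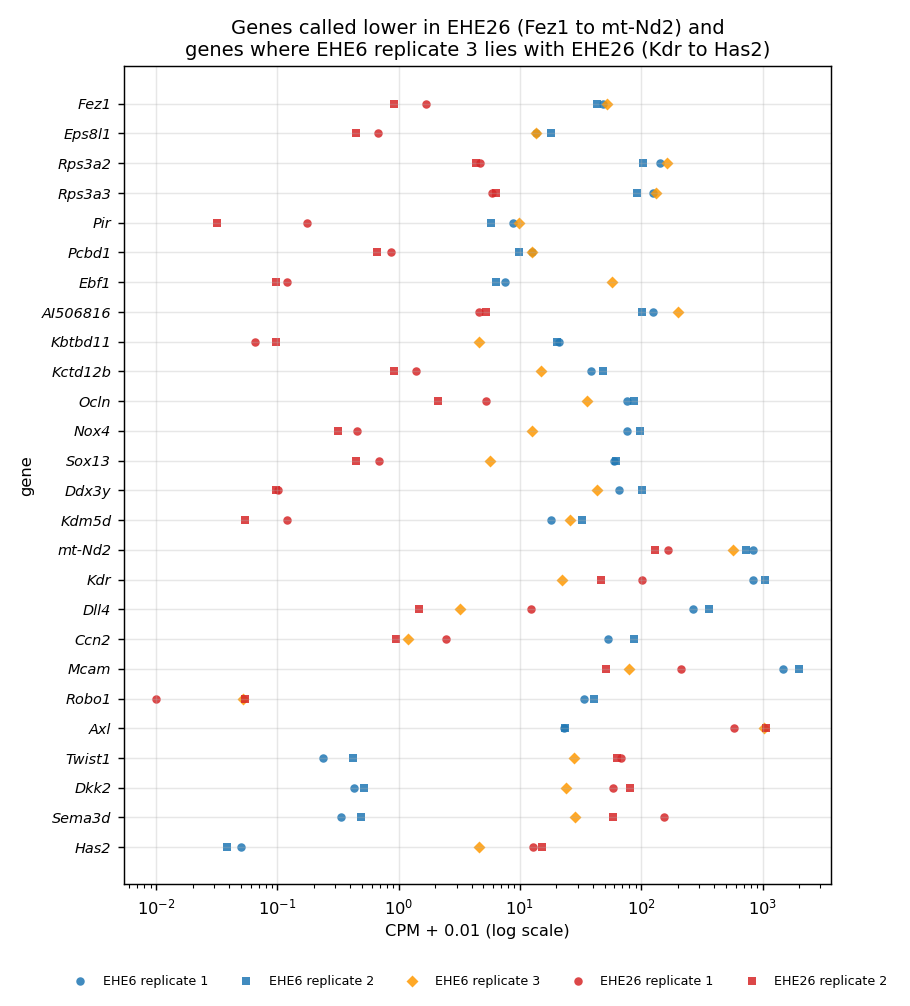
CPM + 0.01 on a log axis for 16 genes called lower in EHE26 (Fez1 to mt-Nd2) and 10 genes where EHE6 replicate 3 lies with EHE26 (Kdr to Has2), 1 symbol per library. In the upper genes the diamond of EHE6 replicate 3 stays on the side of EHE6 replicates 1 and 2 or between, as for Fez1 at 52.5 CPM. In the lower genes it sits with the red symbols of EHE26, as for Kdr at 22.1 CPM.

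Genes of endothelial identity were mostly not called. Of 23 pan-endothelial genes none was called lower, 9 had an unadjusted p under 0.05 and were lower, and DESeq2 called 8 lower, against 9.04% and 4.84% of all tested genes. EHE6_3 lay with EHE26 at 15 of 20 with a place, a share near the 69.6% over all genes lower in EHE26, between at 3 and with EHE6 at 2. The median difference from EHE6_1 and EHE6_2 was -2.03 in EHE26 and -2.97 in EHE6_3. The EHE26 libraries differed over the list, with a median log2 CPM of 7.66 in EHE26_1 and 5.62 in EHE26_2 beside 5.76 in EHE6_3. The median log2 fold change of -1.42 became -2.43 without EHE26_1 and -0.76 without EHE26_2. Without EHE6_3, 9 genes were called lower, against 4.2% of all tested genes. Kdr, the main VEGF receptor, had 829, 1042 and 22.1 CPM in EHE6 and 102 and 46.2 CPM in EHE26 (log2 fold change -3.09 ± 1.32, adjusted p = 0.313, and log2 fold change -3.65, adjusted p = 0.0143 without EHE6_3). EHE6_3 was the lowest library, beyond EHE26. Cdh5, the endothelial cadherin, had 3878, 4890.3 and 1056 CPM in EHE6 and 1959.6 and 2033 CPM in EHE26 (log2 fold change -0.71 ± 0.59, adjusted p = 0.604), and Erg, an ETS factor of endothelium, had 399, 331 and 42 CPM in EHE6 and 233 and 122 CPM in EHE26 (log2 fold change -0.54 ± 0.77, adjusted p = 0.79). EHE6_3 was again lowest in both. Pecam1, the junction protein CD31, had 1495, 1658 and 1179 CPM in EHE6 and 1401 and 1295 CPM in EHE26 (log2 fold change -0.10 ± 0.26, adjusted p = 0.899), and EHE26 fell within the EHE6 range. Vwf, the clotting factor carrier, had 17.2, 19.4 and 3.24 CPM in EHE6 and 0.736 and 0.526 CPM in EHE26 (log2 fold change -4.39 ± 1.15, adjusted p = 0.151, and log2 fold change -4.84, adjusted p = 0.0262 without EHE6_3), with EHE6_3 between. In bulk libraries fewer cells of a type and less RNA per cell cannot be told apart.

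Notch signalling sets arterial identity and restrains vessel sprouting. Dll4, the Notch ligand of arterial and tip cells, had 266, 361 and 3.21 CPM in EHE6 and 12.4 and 1.45 CPM in EHE26 (log2 fold change -4.92 ± 1.90, adjusted p = 0.289, and log2 fold change -5.48, adjusted p = 0.0363 without EHE6_3). Notch4, an endothelial Notch receptor, had 439, 424 and 104 CPM in EHE6 and 55.1 and 48.6 CPM in EHE26 (log2 fold change -2.64 ± 0.87, adjusted p = 0.237, and log2 fold change -3.05, adjusted p = 0.047 without EHE6_3). Both put EHE6_3 with EHE26 by the rule, although for Notch4 its level was above both EHE26 libraries. Over the Notch list of 15 genes none was called. At an unadjusted p under 0.05, 4 were lower and 1 higher, against 9.04% and 6.85% of all tested genes. DESeq2 called 4 lower, against 4.84%. The list was mixed in direction, with 7 of the 15 fold changes positive. EHE6_3 lay with EHE26 at 10 of the 13 with a place, beside 62.5% of all genes with a place in either direction. The lymphatic list of 11 had no call (1 lower at an unadjusted p under 0.05, 1 called lower by DESeq2), and EHE6_3 lay with EHE26 at 7 of 8, too few genes to read against that share. Prox1, the lymphatic master factor, had 34.3, 50.7 and 3.09 CPM in EHE6 and 20.2 and 0.724 CPM in EHE26 (log2 fold change -1.49 ± 1.35, adjusted p = 0.641), with the EHE26 libraries on both sides of EHE6_3. Emcn, a venous and capillary sialomucin, had 438, 377 and 10.1 CPM in EHE6 and 364 and 28.7 CPM in EHE26 (log2 fold change -0.49 ± 1.34, adjusted p = 0.903), where EHE6_3 was the lowest library and the EHE26 libraries differed widely from each other.

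Mcam, an adhesion molecule of pericytes and endothelium, had 1481, 1994 and 78.8 CPM in EHE6 and 215 and 51.4 CPM in EHE26 (log2 fold change -3.16 ± 1.29, adjusted p = 0.307, and log2 fold change -3.69, adjusted p = 0.0363 without EHE6_3). Acta2, smooth muscle actin, had 659, 268 and 15.1 CPM in EHE6 and 64.6 and 30.7 CPM in EHE26 (log2 fold change -2.72 ± 1.43, adjusted p = 0.384), and EHE6_3 was the lowest library. EHE6_3 lay with EHE26 for both, as at 9 of 11 smooth muscle and pericyte genes with a place, beside 62.5% of all genes with a place in either direction. None of that list of 12 was called (1 lower and 1 higher at an unadjusted p under 0.05, and the same numbers by DESeq2). Plxnd1, the semaphorin receptor of endothelium, had 1813, 2017 and 191 CPM in EHE6 and 302 and 97.3 CPM in EHE26 (log2 fold change -2.75 ± 1.04, adjusted p = 0.284, and log2 fold change -3.25, adjusted p = 0.033 without EHE6_3), with EHE6_3 among the EHE26 values. Unc5b, a netrin receptor, had 80.3, 91.4 and 332 CPM in EHE6 and 545 and 727 CPM in EHE26 (log2 fold change 1.92 ± 0.58, adjusted p = 0.196, and log2 fold change 2.89, adjusted p = 0.0019 without EHE6_3). There EHE6_3 lay with EHE26 by the rule, although below both EHE26 libraries. Of 27 axon guidance genes none was called with all libraries, 10 were lower and 4 higher at an unadjusted p under 0.05, and DESeq2 called 6 lower and 3 higher. Over all tested genes these shares were 9.04% lower and 6.85% higher by unadjusted p, and 4.84% and 3.56% by DESeq2.

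The genes joined in the EHE fusion were not called. Wwtr1 had 76.4, 72.1 and 89.8 CPM in EHE6 and 84.8 and 107 CPM in EHE26 (adjusted p = 0.672), Camta1 had 394, 364 and 264 CPM in EHE6 and 337 and 373 CPM in EHE26 (adjusted p = 0.955) and the TAZ relative Yap1 had 164, 163 and 114 CPM in EHE6 and 208 and 203 CPM in EHE26 (adjusted p = 0.363). For Yap1 both EHE26 libraries were above all EHE6 libraries, and for the other 2 genes the groups overlapped. A gene count does not separate fused from normal transcripts. None of 24 YAP/TAZ-TEAD targets was called by edgeR. At an unadjusted p under 0.05, 3 were lower, and DESeq2 called 1 lower, against 9.04% and 4.84% of all tested genes. EHE6_3 lay with EHE26 at all 12 with a place, beside 62.5% of all genes. Axl, a receptor kinase, had 23, 23.6 and 1023 CPM in EHE6 and 582 and 1060.5 CPM in EHE26 (log2 fold change 1.20 ± 1.44, adjusted p = 0.739, and log2 fold change 5.14, adjusted p = 0.00508 without EHE6_3), while Ccn2, a matricellular protein and standard TAZ target, had 52.7, 87.7 and 1.18 CPM in EHE6 and 2.45 and 0.943 CPM in EHE26 (log2 fold change -4.79 ± 1.94, adjusted p = 0.302). Axl was high and Ccn2 low in EHE6_3 and EHE26 alike, in opposite directions within the same list.

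Other genes with large differences had EHE6_3 on the EHE26 side. Pax1, a factor of the sclerotome, had 1.31, 1.04 and 479.6 CPM in EHE6 and 196 and 501 CPM in EHE26 (log2 fold change 1.12 ± 2.22, adjusted p = 0.856, and log2 fold change 8.21, adjusted p = 0.0321 without EHE6_3). Twist1, a mesenchymal factor, had 0.229, 0.409 and 27.8 CPM in EHE6 and 68 and 62.8 CPM in EHE26 (log2 fold change 2.79 ± 1.68, adjusted p = 0.454, and log2 fold change 7.68, adjusted p = 0.00414 without EHE6_3). Sema3d, a secreted guidance cue, had 0.323, 0.48 and 28.5 CPM in EHE6 and 155 and 58.8 CPM in EHE26 (log2 fold change 3.45 ± 1.70, adjusted p = 0.352, and log2 fold change 8.06, adjusted p = 0.00644 without EHE6_3). All 3 were low in EHE6_1 and EHE6_2 and much higher in the other 3 libraries. Has2, a hyaluronan synthase, had 0.0404, 0.0282 and 4.58 CPM in EHE6 and 12.8 and 15.2 CPM in EHE26 (log2 fold change 8.60, adjusted p = 0.00313 without EHE6_3), Dlx1, a homeobox factor, had 0, 0.0564 and 8.76 CPM in EHE6 and 12.5 and 21.2 CPM in EHE26 (log2 fold change 9.16, adjusted p = 0.00454 without EHE6_3), and Dkk2, a WNT modulator, had 0.418, 0.508 and 23.9 CPM in EHE6 and 58.4 and 80.9 CPM in EHE26 (log2 fold change 7.23, adjusted p = 0.0147 without EHE6_3). At these 3 EHE6_3 lay nearer to EHE26 but below both of its libraries. In the same branch, Bmp2, a growth factor of bone and vessel, had 9.82, 10.8 and 134 CPM in EHE6 and 84.1 and 336 CPM in EHE26 (log2 fold change 4.35, adjusted p = 0.00922 without EHE6_3), and EHE6_3 fell between the 2 EHE26 libraries. Bmp2 was chosen after its values were seen.

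Genes lower in EHE26 and in EHE6_3 included some that were not read in either. Clic6, a chloride channel-like protein, had 29.2, 30 and 0 CPM in EHE6 and 0 and 0 CPM in EHE26 and Ephb1, an ephrin receptor, had 12.7, 16.8 and 0 CPM in EHE6 and 0 and 0 CPM in EHE26. Snhg11, a host transcript of small nucleolar RNAs, had 11, 17.6 and 0 CPM in EHE6 and 0 and 0 CPM in EHE26. With a floor of 3 counts over EHE26 these were at least 986-fold, 490-fold and 473-fold lower in EHE26 than in EHE6_1 and EHE6_2. Without EHE26_1, which lowers the depth behind the floor, these limits were 450-fold, 223-fold and 216-fold, and without EHE26_2 they were 536-fold, 266-fold and 257-fold. EHE6_3 was at 0 for all 3. Robo1, a Slit receptor, had 33.5, 40.8 and 0.042 CPM in EHE6 and 0 and 0.0439 CPM in EHE26 (log2 fold change -10.71, adjusted p = 0.0171 without EHE6_3), and Mogat2, a lipid acyltransferase, had 35.1, 26.8 and 0.042 CPM in EHE6 and 0 and 0.0439 CPM in EHE26 (log2 fold change -10.44, adjusted p = 0.0244 without EHE6_3). Levels of both in EHE6_3 matched those of EHE26. In the other direction, Siglecg, an inhibitory sialic acid receptor, had 0, 0 and 0.315 CPM in EHE6 and 11 and 51.2 CPM in EHE26, at least 1419-fold higher in EHE26 than in EHE6_1 and EHE6_2, which had no read. That limit was 532-fold without EHE26_2, 2477-fold without EHE26_1, 693-fold without EHE6_1 and 726-fold without EHE6_2. EHE6_3 lay between, and the gene was not called with all libraries (adjusted p = 0.0705).

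No proliferation gene was called. Mki67, a marker of cycling cells, had 134, 80.3 and 378 CPM in EHE6 and 226 and 183 CPM in EHE26 (log2 fold change 0.05 ± 0.78, adjusted p = 0.984), and Top2a, the topoisomerase of dividing cells, had 167, 94.6 and 689 CPM in EHE6 and 306 and 351 CPM in EHE26 (log2 fold change 0.05 ± 0.93, adjusted p = 0.986). EHE6_3 was the highest library and EHE26 fell inside the EHE6 range. None of the 24 genes in the list was called by edgeR or by DESeq2, and none had an unadjusted p under 0.05. The median difference from EHE6_1 and EHE6_2 was 1.20 in EHE26 and 1.94 in EHE6_3, and EHE6_3 lay with EHE26 at all 15 genes with a place, beside 50.9% of all genes higher in EHE26. Trp53, the tumour suppressor p53, had 257, 191 and 196 CPM in EHE6 and 121 and 104 CPM in EHE26 (log2 fold change -0.94 ± 0.32, adjusted p = 0.247), and both EHE26 libraries were under all EHE6 libraries. Cdkn2b, an inhibitor of cell-cycle kinases, had 333, 335 and 1.58 CPM in EHE6 and 64.6 and 61.3 CPM in EHE26 (log2 fold change -1.83 ± 1.56, adjusted p = 0.616), with EHE6_3 far below every other library.

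The remaining lists held few calls, and their counts at an unadjusted p under 0.05 stand beside 6.85% higher and 9.04% lower over all tested genes (3.56% and 4.84% by DESeq2). Nothing particular to these lists is read from them. Of 16 collagens none was called by edgeR, 4 were higher and 2 lower at an unadjusted p under 0.05, and DESeq2 called 2 in each direction. Of 22 TGF-beta and BMP genes none was called (4 higher and 2 lower at an unadjusted p under 0.05, 2 and 1 by DESeq2), and EHE6_3 lay with EHE26 at 9 and with EHE6 at 3. Col1a1, the main fibrillar collagen chain, had 5.19, 7.75 and 2.37 CPM in EHE6 and 7.23 and 5.53 CPM in EHE26 (log2 fold change 0.32 ± 0.79, adjusted p = 0.888). Cdkn2a, the locus of p16 and Arf, had 3.88, 4.56 and 0.021 CPM in EHE6 and 1.75 and 2.17 CPM in EHE26 (log2 fold change -0.53 ± 1.34, adjusted p = 0.893), and Lyve1, the hyaluronan receptor of lymphatic vessels, had 4.23, 6.42 and 4.41 CPM in EHE6 and 11.1 and 5.0 CPM in EHE26 (log2 fold change 0.68 ± 0.78, adjusted p = 0.728). The groups overlapped at all 3 genes, and EHE6_3 was the lowest library for Col1a1 and Cdkn2a. For the WNT list of 13, none was called (2 higher and 3 lower at an unadjusted p under 0.05, 1 and 3 by DESeq2). Hypoxia and glycolysis genes (16) had none called, 3 lower at an unadjusted p under 0.05 and 1 lower by DESeq2. The 18 p53 targets had 2 lower at an unadjusted p under 0.05, 1 lower by DESeq2 and none called by edgeR. Imprinted growth genes (13) had 2 higher and 1 lower at an unadjusted p under 0.05, with 2 called higher by DESeq2 and none by edgeR.

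**Figure D4:**
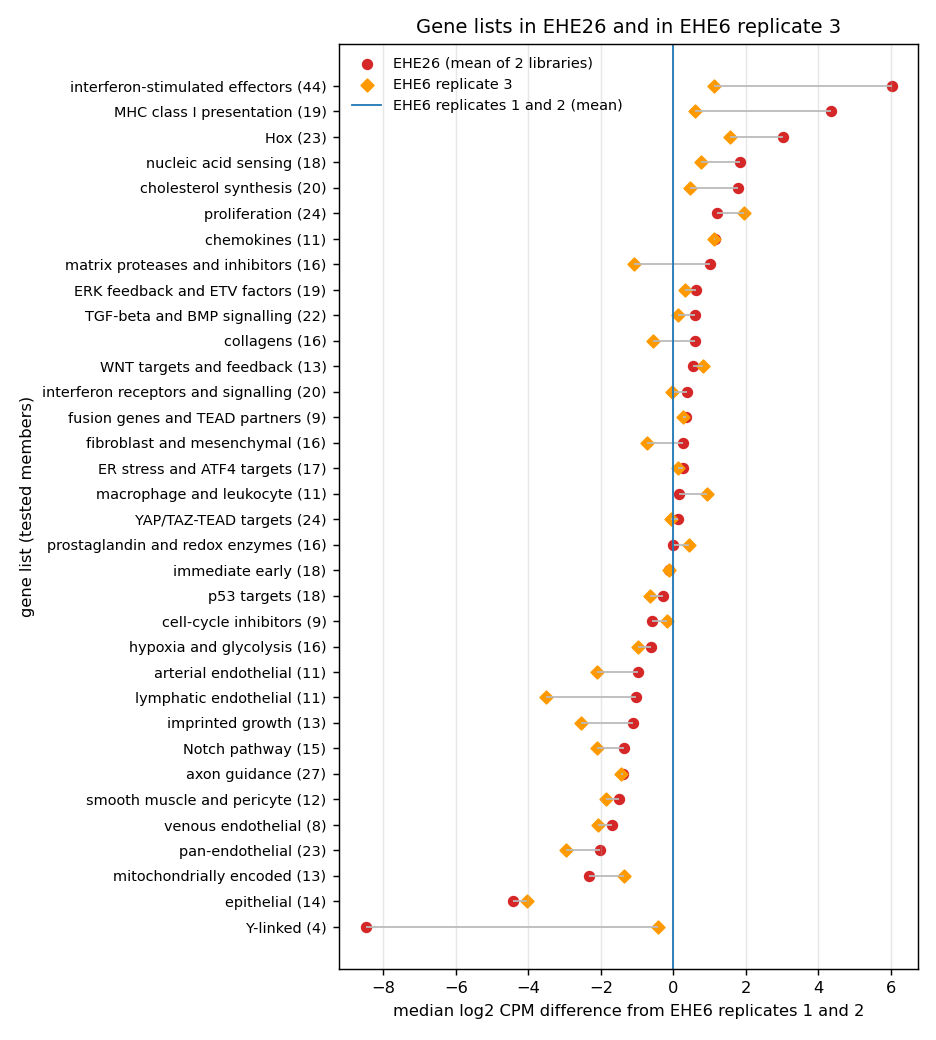
Median log2 CPM difference from the mean of EHE6 replicates 1 and 2 (vertical line) for 34 gene lists, for EHE26 (circles) and for EHE6 replicate 3 (diamonds), with the number of tested members in brackets. EHE6 replicate 3 is far from EHE26 for interferon effectors (1.13 against 6.04) and class I genes (0.61 against 4.36) and on the same side as EHE26 for pan-endothelial genes (-2.97 against -2.03, where the EHE26 libraries differed from each other).

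Markers of cell types were summed in each library. The 6 endothelial markers were at 10 CPM or more in all 5 libraries and summed to 7821, 9151 and 2517 CPM in EHE6 and 4179 and 3609 CPM in EHE26. Fibroblast markers summed to 45.5, 56.3 and 268 CPM and to 427 and 186 CPM, with the EHE6_3 sum between those of the EHE26 libraries. The longer fibroblast and mesenchymal list was divided. Of its 10 genes with a place, EHE6_3 lay with EHE6 at 5 and with EHE26 at 5. Its median difference from EHE6_1 and EHE6_2 was -0.72 in EHE6_3 and 0.28 in EHE26. Smooth muscle markers summed to 672, 282 and 221 CPM and to 136 and 128 CPM. In EHE6_3 most of that sum came from Rgs5 (8731 reads), while Acta2 had 720 reads. Epithelial markers summed to 38.4, 23 and 89.8 CPM and to 3.09 and 28.6 CPM. The EHE6_3 sum was nearly all Krt18 (4245 reads), while Epcam had 0 reads there, so it does not stand for the set. Hepatocyte, lung epithelial and mesothelial markers were at most 26.6, 3.65 and 14.9 CPM in sum, with the lung marker Scgb1a1 at 0 in all 5 libraries, and no marker gene of these types was called. Their part in the differences was not tested.

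Levels were also summarised by chromosome for genes with a mean of at least 10 CPM. The largest medians were those of the Y chromosome and of mitochondrial genes, described above, and the following holds for autosomes. On chromosome 4 the median log2 difference of EHE26 was -0.06 from EHE6_1, 0.05 from EHE6_2 and 0.72 from EHE6_3, and on chromosome 16 it was 0.07, 0.08 and 0.70. EHE6_3 thus differed from EHE26 and from its own line on both. On chromosome 15 EHE26 was lower than EHE6_1 and EHE6_2 (-0.54 and -0.40) and closer to EHE6_3 (-0.20). These are medians over 570, 299 and 389 genes, which are not replicates, and they were not tested.

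**Figure D5:**
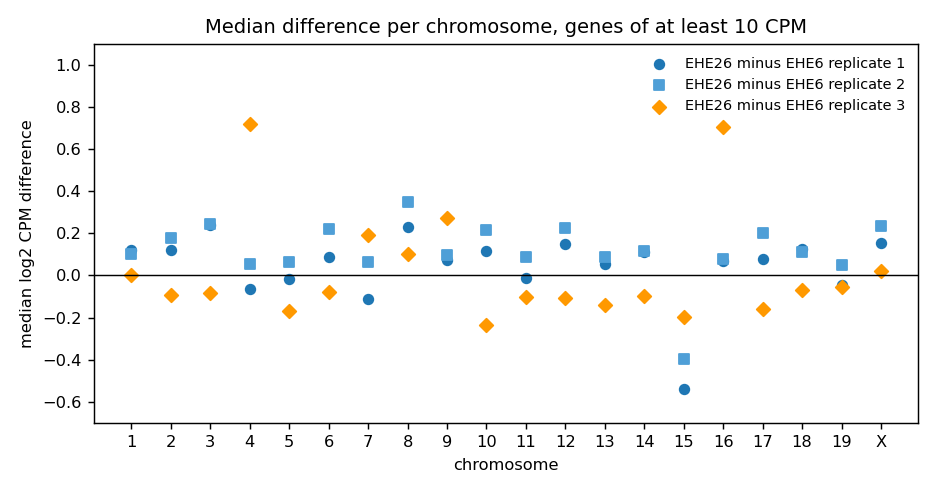
Median log2 CPM difference of EHE26 from each EHE6 library by chromosome, for genes with a mean of at least 10 CPM, 1 symbol per EHE6 library. Among the autosomes, chromosomes 4 and 16 stand out for EHE6 replicate 3 (0.72 and 0.70) and chromosome 15 for EHE6 replicates 1 and 2 (-0.54 and -0.40).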

How the data were processed

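RNA was extracted and polyA-selected libraries were made per the labels' protocols. Per the submitters' processing notes, the authors used HISAT2 and the mm10 build; the aligner's version, counting tool, annotation and strand setting are not given in the sources used here. What was deposited are unnormalised read counts for each Ensembl gene, and the 8 sample files equal their columns in the series table. Symbols came from GENCODE M21, which held 55141 of 55401 identifiers.

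Counts were filtered with filterByExpr by line, normalised with TMM and fitted in edgeR 4.0.16 (R 4.3.3, quasi-likelihood test, line as the term, all 8 libraries), with Benjamini-Hochberg adjustment over 18882 genes. Log2 CPM used a prior count of 2. Total counts were 44620965 to 96237665. The common biological coefficient of variation was 0.600. Alternatives used DESeq2 1.42.0, other filters and scalings, fewer libraries and a library set taken from the sign of the first principal component.

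The members and gene lists were chosen with earlier results of these data known. Named genes were up to 10 higher and 12 lower called genes by fold change, the leading called and the most abundant members of each list, the leading genes by place of EHE6_3, and a fixed group. Some genes that this rule names are not reported here.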

Additional observations from a re-analysis of the deposited data

How the results depend on the processing

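Genes called (237, of which 207 higher and 30 lower) kept their direction under all alternatives, and counts moved as follows. DESeq2 gave 1585 (672 higher, 913 lower), no filter on low counts 547 (370, 177), only the EHE6 and EHE26 libraries 126 (110, 16), and EHE6 replicate 3 as the sole EHE6 library 69 (54, 15). The library set as a term gave 356, of which 60 were lower, and 195 of the 237 were among them. The cause of these moves was not tested. Leaving out 1 library gave 65 to 1632 calls, 58 to 834 higher and 5 to 798 lower. RLE normalization gave 230 and a filter of 10 counts in 2 libraries 235. Of the 49 named genes called, 45 were called with the library set as a term, 28 with only the EHE6 and EHE26 libraries, 19 with EHE6 replicate 3 as the sole EHE6 library, and 18 to 49 when 1 library was left out (lowest without EHE26 replicate 1).

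A replicate block, which treats equal replicate numbers as pairs, gave 1459 calls (674 higher, 785 lower), but the numbers share no documented source. Departures from the line means correlated at 0.18 between EHE6 and EHE26 libraries of number 1 and at -0.098 for number 2. With only 2 EHE26 libraries, their departures mirror each other, so these correlations cannot decide whether equal numbers are pairs. The libraries were not read as pairs because no source documents it. Without EHE6 replicate 3, 1632 genes were called, and 3836 by DESeq2, 3720 with no filter and 4247 with only the 4 remaining libraries. The 892 genes of these where EHE6 replicate 3 lay with EHE26 became 800 to 1060 under other cuts and 871 with a prior count of 0.5. With 2 EHE26 libraries and a common coefficient of variation of 0.600, small differences may not have been detectable, and a gene that was not called is not shown to be equal.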
